A study of Homo sapiens with 6 samples.

Results

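The genes described here encode the myosins, their light chains, the kinases of the light chains and the tropomyosins, in HCC-LM3, an established human hepatocellular carcinoma line. They were taken by symbol (MYO, MYH, MYL, MYLK and TPM1 to TPM4), which gave 45 of the 23059 genes listed in the deposited counts. The 45 were 3 nonmuscle and 5 muscle heavy chain genes, 4 regulatory and 3 essential light chain genes, 4 kinase genes, 4 tropomyosin genes and 22 genes of unconventional myosins. RNA-seq was done on 3 samples of cells given DMSO and 3 samples given apigenin, a plant flavone, and the labels name no genetic change in either group. Neither dose nor duration of treatment is stated in the labels. The labels call the samples biological replicates, and all come from this 1 line.

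Myosins are motors that hydrolyse ATP to pull on actin filaments. A conventional (class II) myosin joins a pair of heavy chains with essential light chains, which stiffen the lever arm, and regulatory light chains, whose phosphorylation by kinases such as MLCK and ROCK lets the motor assemble and contract. Unconventional myosins carry membranes, vesicles and other cargo along actin or tether them to it, and tropomyosins are coiled coils that run along the filament and set which motors can bind. In hepatocytes and liver carcinoma cells these proteins serve canalicular contraction, vesicle traffic, division and migration.

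Levels below are CPM, counts scaled to library size, when libraries are compared for 1 gene, and FPKM, which also divides by gene length, when genes are compared. A log2 fold change sets apigenin against DMSO, with its SE, and a gene was called changed at an adjusted p under 0.05 in edgeR's quasi-likelihood test over all tested genes. The libraries held 33882145 to 37983636 counts, of which the 45 genes took 0.548 to 0.552% with DMSO and 0.525 to 0.533% with apigenin. The apigenin libraries had a trend on gene length against DMSO, with slopes of -0.07, -0.02 and -0.15 in log2 units per doubling of length in apigenin 1, 2 and 3, so that long genes read lower in apigenin 3 above all. Each gene's length, by which FPKM divides and which was inferred from its count, FPKM and library total, therefore stands beside its change. It is not the span between the gene's positions. The fold change with that trend removed is given too, and gene positions are those of RefSeq on GRCh38.

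Hepatocellular markers summed to 4052 to 4140 CPM with DMSO and 3505 to 4013 CPM with apigenin. Of the 12, 11 passed the filter on low counts (APOA2 did not). The 12 were ALB, AFP, SERPINA1, APOA1, APOA2, APOB, TF, TTR, FGB, HNF4A, KRT8 and KRT18, and the sum does not show which carry it. Of 10 skeletal and cardiac muscle markers 6 were listed in the deposited counts and 1 was tested, with sums of 0.484 to 0.608 CPM (DMSO) and 0.626 to 1.25 CPM (apigenin). Of 8 fibroblast and smooth muscle markers 3 were tested, and COL1A2, COL3A1, PDGFRB, ACTA2 and CNN1 had 20 reads or fewer in all libraries together. Their sum was 23.8 to 26.0 CPM with DMSO and 29.3 to 31.8 CPM with apigenin. Endothelial markers fell in the ranges of 105 to 111 and 87.1 to 96.3 CPM, and blood markers in those of 87.1 to 94.0 and 86.2 to 95.7 CPM. All samples come from 1 line, so that these marker reads need not stand for other cell types. In bulk RNA, fewer cells with a transcript and less of it per cell cannot be told apart. The part of these differences in the results was not tested.

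The pair MYL12A and MYL12B is shown first because near-identical sequence bears on how far reads can be assigned to either gene. Their coding sequences (longest open reading frames of the GENCODE 29 transcripts MYL12A-202, 534 bases, and MYL12B-201, 519 bases) were 92% identical, with a longest identical run of 77 bases. The last 150 coding bases, 385 to 534 and 370 to 519, differ at 1 base, in capitals.
MYL12A: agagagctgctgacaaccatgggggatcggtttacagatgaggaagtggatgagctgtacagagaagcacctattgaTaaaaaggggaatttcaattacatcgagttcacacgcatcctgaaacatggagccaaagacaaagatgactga
MYL12B: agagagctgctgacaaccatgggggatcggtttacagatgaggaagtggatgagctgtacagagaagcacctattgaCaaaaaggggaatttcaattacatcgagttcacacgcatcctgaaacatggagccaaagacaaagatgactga

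No other pair compared came that close by percent of aligned columns, gaps counted. MYL12A and MYL9 were 77.3% identical, MYH9 and MYH10 71.8%, MYO5A and MYO5B 65.5%, MYL6 and MYL6B 62% (717 and 627 bases, with a longest identical run of 48) and MYO5A and MYO5C 60.0%. For MYL6 the frame taken, 717 bases, exceeded the inferred length of 708 nucleotides, so that the likeness of that pair is uncertain. The levels of MYL12A and MYL12B are uncertain as a split between both genes because of their near-identical sequence.

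The promoters of MYO5A, MYO5C, MYO6 and MYO1A, all lower with apigenin, are shown as 250 bases before the start site (RefSeq, GRCh38.p14). Both strands were searched for GCGTG, the core of sites bound by the aryl hydrocarbon receptor, and for the CArG box, the site of serum response factor (SRF), which drives many actin and myosin genes. Matches are in capitals. MYO5A and MYO6 hold 1 GCGTG each (on the other strand in MYO6), MYO5C holds neither motif, and the window of MYO1A, at one of its RefSeq start sites, holds 1 CArG box.
MYO5A, chr15:52529051-52529300, minus strand: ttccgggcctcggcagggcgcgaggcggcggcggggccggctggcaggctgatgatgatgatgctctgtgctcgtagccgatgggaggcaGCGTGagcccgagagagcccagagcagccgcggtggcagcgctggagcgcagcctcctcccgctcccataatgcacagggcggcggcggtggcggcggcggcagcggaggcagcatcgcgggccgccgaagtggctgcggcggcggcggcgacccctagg
MYO5C, chr15:52295805-52296054, minus strand: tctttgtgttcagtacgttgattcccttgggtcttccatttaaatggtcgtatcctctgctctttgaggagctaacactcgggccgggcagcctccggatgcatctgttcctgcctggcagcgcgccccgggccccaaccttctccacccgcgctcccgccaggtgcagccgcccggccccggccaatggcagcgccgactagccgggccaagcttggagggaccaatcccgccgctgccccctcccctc
MYO6, chr6:75748989-75749238, plus strand: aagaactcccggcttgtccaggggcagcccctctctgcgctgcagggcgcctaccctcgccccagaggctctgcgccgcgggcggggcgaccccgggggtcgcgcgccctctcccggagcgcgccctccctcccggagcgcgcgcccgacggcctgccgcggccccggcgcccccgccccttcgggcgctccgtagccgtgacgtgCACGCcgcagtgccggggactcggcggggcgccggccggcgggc
MYO1A, chr12:57050130-57050379, minus strand: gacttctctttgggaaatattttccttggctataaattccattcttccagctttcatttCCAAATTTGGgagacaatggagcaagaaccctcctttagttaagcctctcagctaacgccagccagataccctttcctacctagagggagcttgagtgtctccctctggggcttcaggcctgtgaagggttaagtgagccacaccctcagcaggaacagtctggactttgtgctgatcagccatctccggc

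In windows of 300 bases (250 before to 50 after the start) GCGTG was in 36.5% of 35116 promoters, or 40.6% of 27305 genes. It was in 19 of the 37 myosin, light chain, kinase and tropomyosin genes with a promoter entry. Of the 8 genes called lower it was in 6, MYO1A and MYO5C being those without it. A CArG box was in 1.29% of promoters and 1.6% of genes. It was found in 4 of the 37 genes, MYLK, MYO1A, MYO1E and TPM4, of which MYO1A was called lower and the others were not called. No gene of the 37 held both motifs. The MYLK match lies at a start site near the 3′ end of that gene. A match is a string of letters and was not tested as a binding site.

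Of the 45 genes 34 passed the filter on low counts, and 8 fell, 0 rose and 26 were not called. Those that fell were MYO6, MYO5C, MYO5A, MYO9A, MYO18A, MYO1C and MYO1A, which encode unconventional myosins, and MYH10, the heavy chain of nonmuscle myosin IIB. Their falls were of 15.7% (MYO1C) to 34.2% (MYO1A). Over all 15173 tested genes 4.22% were called lower and 2.76% higher. At an unadjusted p under 0.05, 15 of the 34 genes were lower and 2 higher, beside 12.6% and 11.7% of all tested genes. At an adjusted p under 0.05 DESeq2 called 11 lower and 1 higher (MYL12A). Of the genes to which it gave an adjusted p, it called 7.37% lower and 5.34% higher. The median log2 fold change of the 34 genes was -0.15, beside 0.00 over all tested genes.

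The 34 genes were long, with a median of 7354.5 nucleotides beside 3872 over all tested genes. Among the longest 20% of tested genes, those of 7092 nucleotides or more, 11.0% were called lower, and 5 of the 18 genes of the set in that range were (MYO6, MYO5A, MYO9A, MYO18A and MYH10). With the length trend removed, 5.38% of all tested genes were lower and 4.63% higher, and 7.64% of the longest 20% were lower. The same 8 genes were then called lower, 5 of them again in that range, MYO10 was called higher, and the median of the 34 moved to -0.07. Across the 34 genes log2 fold change and length had a Spearman correlation of -0.49, and of -0.32 after removal of the trend. These points share the same 6 libraries, so that the coefficients are a description.

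**Figure D1:**
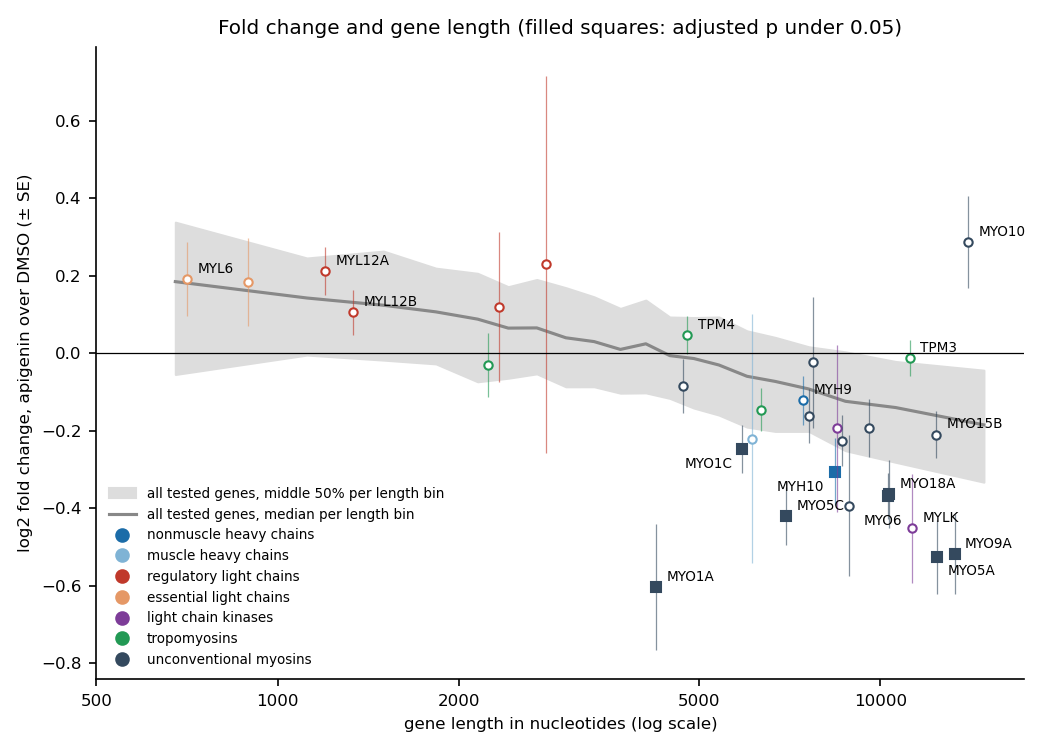
Log2 fold change (± SE) against gene length on a log axis for 33 of the 34 tested genes, less MYH15, MYLK2 and MYO7B. Shown with them are the median (line) and the middle 50% (band) of all tested genes per length bin. Filled squares are genes with an adjusted p under 0.05. The squares lie below the band, MYO10 lies above it and MYH9 inside it. MYH15, MYLK2 and MYO7B, with at most 67, 25 and 31 reads in a library, are not drawn (0.85, 0.76 and -1.42).

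The groups did not overlap in 17 of the 34 genes. All 3 apigenin libraries lay below all 3 DMSO libraries in 14 genes and above them in 3 (MYL12A, MYL12B and TPM4), whereas over all tested genes these shares were 15.0% below and 14.4% above. Apigenin 3 was the farthest library. The median log2 ratio of the 34 genes to the DMSO mean was -0.09, -0.15 and -0.25 in the order apigenin 1, 2 and 3. For the 8 called genes it was -0.38, -0.28 and -0.58. The order with apigenin 3 lowest and apigenin 2 highest was found in 15 of the 34 genes and in 6 of the 8.

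**Figure D2:**
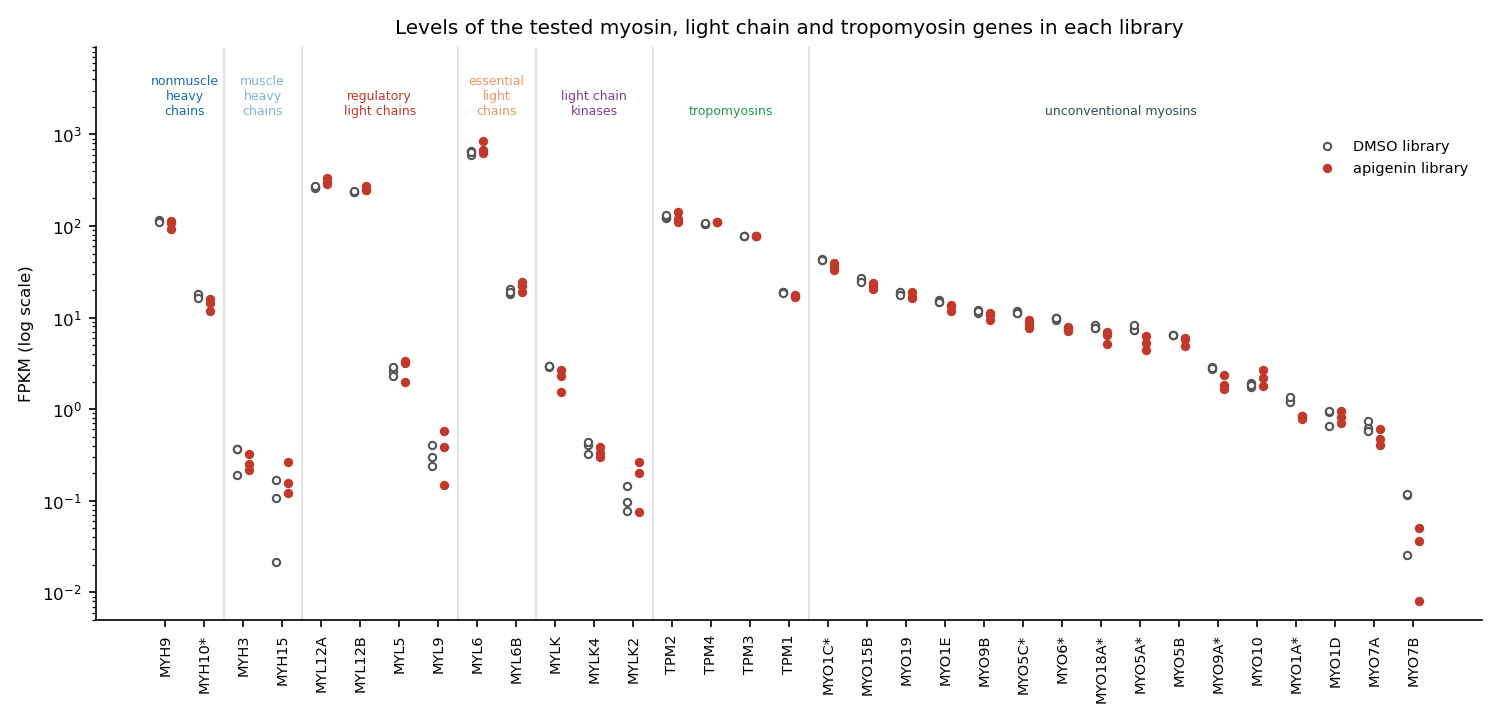
FPKM (log axis) of 33 of the 34 tested genes in each DMSO (open) and apigenin (filled) library, grouped by role and ordered by DMSO level, with a star at the 8 called genes. MYL6, MYL12A and MYL12B stood highest, and the libraries of called genes lie apart by much less than the distance between most genes.

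In the DMSO libraries MYL6, the essential light chain, was the most abundant at 630 ± 26.2 FPKM (SD, n = 3). The regulatory light chain genes MYL12A (266 ± 4.87) and MYL12B (237 ± 3.26 FPKM) came next. TPM2 (127 ± 4.03), MYH9 (114 ± 3), TPM4 (107 ± 1.3) and TPM3 (78.2 ± 0.144 FPKM) followed. None of these 7 overlapped its neighbour in the order, which rests on the length inferred for each gene. Among the unconventional myosin genes MYO1C stood at 42.8 and MYO15B at 25.6 FPKM. After these MYL6B (19.3), TPM1 (19.0), MYO19 (18.4) and MYH10 (17.4 FPKM) overlapped with their neighbours, so that their order is not resolved by 3 libraries.

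The nonmuscle heavy chains are the motor subunits of stress fibres and of the contractile ring. MYH10 (chr17:8474212-8630725, 8400 nucleotides) had 148, 151 and 139 CPM with DMSO and 122, 132 and 99.5 CPM with apigenin. Each apigenin library lay below the DMSO libraries, apigenin 3 by most. This was a log2 fold change of -0.31 ± 0.086 (adjusted p = 0.0477), and -0.20 with the length trend removed (adjusted p = 0.0326), where the trend at that length was -0.11. This call was lost without any 1 of DMSO 1, DMSO 2, DMSO 3 or apigenin 1, with values of -0.40 to -0.20 over the 6 libraries left out in turn and an adjusted p of up to 0.19. MYH10 overlaps NDEL1 and a pair of uncharacterised genes, whose reads cannot be told apart without strand.

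MYH9, the heavy chain of nonmuscle myosin IIA (chr22:36281280-36387967, 7451 nucleotides), had 848, 867 and 827 CPM with DMSO and 799, 840 and 699 CPM with apigenin. Apigenin 2 lay within the DMSO range. Its log2 fold change of -0.12 ± 0.063 was not called (adjusted p = 0.264) and was -0.03 with the length trend removed. Without apigenin 2 it was called (-0.18, adjusted p = 0.0348), but not with the trend also removed (-0.05, adjusted p = 0.511). MYH10 made up 13.2 ± 0.268% of the summed FPKM of MYH9, MYH10 and MYH14 with DMSO and 11.8 ± 0.535% with apigenin (SD, n = 3). Whether both heavy chains differ in their change was not tested.

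MYH14, the heavy chain of nonmuscle myosin IIC, did not pass the filter. It took 0.00296, 0 and 0.00328% of that sum in the DMSO libraries and 0, 0.0118 and 0.0244% in the apigenin libraries. Of the muscle heavy chain genes MYH3 (6136 nucleotides, -0.22 ± 0.322, and -0.16 with the trend removed) and MYH15 (7458 nucleotides, 0.85 ± 0.566, and 0.96 with the trend removed) were tested, at 2.26 CPM or less in every library, and neither was called. MYH3 overlaps SCO1 and MYH15 overlaps CIP2A.

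The light chains clip onto the lever arm of the heavy chain, and their genes are short. None of the 6 tested light chain genes was called in either direction. All 6 log2 fold changes were above 0, with a median of 0.19, and the trend at these genes' lengths had a median of 0.13. With the trend removed, 4 were above 0 and 2 below, with a median of 0.03.

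MYL12A (chr18:3247482-3256237, 1199 nucleotides) had 317, 314 and 327 CPM with DMSO and 364, 343 and 403 CPM with apigenin. All apigenin libraries were higher. Its log2 fold change of 0.21 ± 0.062 missed the threshold (adjusted p = 0.0547). It was 0.07 with the length trend removed. MYL12A was called in 5 of 20 other settings, none of them with that trend removed. These were DESeq2 (adjusted p = 0.0159), no filter, the replicate number as a block, without apigenin 2 (adjusted p = 0.00366 in edgeR) and without apigenin 3.

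MYL12B (chr18:3262133-3278461, 1335 nucleotides), which is 5895 bases from MYL12A, had 318, 311 and 322 CPM with DMSO and 330, 327 and 366 CPM with apigenin. These groups did not overlap either, though the distance between them was small. On the log2 scale the change was 0.11 ± 0.057 (adjusted p = 0.282), and -0.02 with the trend removed. MYL12A was 52.5 ± 0.228% of the summed FPKM of the regulatory light chains with DMSO and 54.4 ± 0.664% with apigenin, and MYL12B 46.9 ± 0.214 and 45.1 ± 0.777%. Both genes overlap the antisense gene MYL12-AS1.

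MYL9, the regulatory light chain of smooth muscle, was near the limit of detection. It had 25, 31 and 39 reads with DMSO and 54, 41 and 14 reads with apigenin, or 0.673, 0.829 and 1.13 against 1.59, 1.07 and 0.417 CPM. The apigenin libraries lay on both sides of the DMSO libraries (0.23 ± 0.487, 2786 nucleotides, and 0.19 with the trend removed). MYL5 (2329 nucleotides) stood at 0.12 ± 0.194, and at 0.04 with the trend removed. MYL5 overlaps SLC49A3, and MYL9 overlaps DLGAP4-AS1.

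MYL6 (chr12:56158359-56161579, 708 nucleotides) had 462, 424 and 452 CPM with DMSO and 473, 440 and 614 CPM with apigenin. Apigenin 3 alone stood well above the DMSO range, and apigenin 2 lay within it. The log2 fold change of 0.19 ± 0.095 (adjusted p = 0.234) became -0.0033 with the length trend removed. Without apigenin 2 MYL6 was called (0.29, adjusted p = 0.0198), but not with the trend also removed (0.02, adjusted p = 0.86). Its neighbour MYL6B, 376 bases away (892 nucleotides), stood at 0.18 ± 0.113 (adjusted p = 0.342), and at 0.02 with the trend removed. MYL6 was 97.0% of the summed FPKM of the essential light chains in both groups.

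MYLK, which encodes the kinase that phosphorylates the regulatory light chains on calcium and calmodulin, was not called. MYLK (chr3:123610049-123884332, 11291 nucleotides) had 33.6, 32.7 and 33.9 CPM with DMSO and 25.7, 29.9 and 17.5 CPM with apigenin. The groups did not overlap, and the spread of the apigenin libraries was wide. The log2 fold change was -0.45 ± 0.141 (adjusted p = 0.0677), and -0.31 with the trend removed (adjusted p = 0.0553). It was called in 6 of 20 other settings, among them without apigenin 2 (-0.63, adjusted p = 0.00273). MYLK overlaps MYLK-AS1. Of the further kinase genes MYLK4 (8464 nucleotides) stood at -0.19 ± 0.215 (-0.07 with the trend removed) and MYLK2 (2799 nucleotides), with 25 reads or fewer per library, at 0.76 ± 0.614 (0.70 with the trend removed). MYLK4 overlaps WRNIP1.

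None of the 4 tropomyosin genes was called. TPM3 (chr1:154155308-154192100, 11203 nucleotides) had 878, 873 and 877 CPM with DMSO and 868, 860 and 877 CPM with apigenin. The groups overlapped. Its log2 fold change of -0.01 ± 0.046 (adjusted p = 0.908) became 0.15 with the length trend removed (adjusted p = 0.0624), the trend at its length being -0.16. In 2 of 20 other settings, both with the trend removed, TPM3 was called higher (adjusted p down to 0.00175 in edgeR).

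TPM4 (chr19:16067538-16103002, 4782 nucleotides) had 508, 507 and 520 CPM with DMSO and 531, 526 and 529 CPM with apigenin. The apigenin libraries were all above, by a small distance (0.05 ± 0.048, adjusted p = 0.604, and 0.07 with the trend removed). TPM1 (chr15:63042747-63071915, 6330 nucleotides), which overlaps TPM1-AS, had 122, 121 and 119 CPM with DMSO and 107, 107 and 112 CPM with apigenin. All apigenin libraries were lower, but the log2 fold change of -0.15 ± 0.056 was not called (adjusted p = 0.129, and -0.08 with the trend removed), except without apigenin 3 (adjusted p = 0.0375).

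TPM2 (chr9:35681993-35690056, 2232 nucleotides) had 275, 282 and 294 CPM with DMSO and 266, 245 and 323 CPM with apigenin. Apigenin 3 lay above all DMSO libraries and apigenin 1 and 2 below them (-0.03 ± 0.082, adjusted p = 0.873, and -0.11 with the trend removed). It was called lower without apigenin 3 (-0.15, adjusted p = 0.039). Of the summed FPKM of the 4 genes TPM2 made up 38.4 ± 0.661 and 37.6 ± 3.19% in the DMSO and apigenin groups, TPM4 32.3 ± 0.157 and 33.6 ± 1.88%, TPM3 23.6 ± 0.386 and 23.5 ± 1.14%, and TPM1 5.74 ± 0.17 and 5.22 ± 0.179%. These shares rest on the length inferred for each gene, 11203 nucleotides for TPM3 and 2232 for TPM2. Before division by length TPM3 had more reads than TPM2 (means of 876 and 284 CPM with DMSO). The length of the transcripts present was not measured.

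The unconventional myosins held 7 of the 8 calls. Of the 17 tested genes 7 fell, 0 rose and 10 were not called, and 16 of the 17 log2 fold changes were below 0 (14 with the length trend removed). MYO6, MYO5C and MYO5A, of classes VI and V, held the calls with the lowest adjusted p. With the trend removed, MYO9A (adjusted p = 0.00508) stood below MYO6 (adjusted p = 0.0106). MYO5B, also of class V, was not called either way.

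MYO6, the motor that walks towards the pointed end of actin and serves endocytosis, fell with the smallest adjusted p before removal of the trend. MYO6 (chr6:75749239-75919537, 10307 nucleotides) had 97.8, 102 and 102 CPM with DMSO and 79.3, 79.6 and 75.2 CPM with apigenin. The apigenin libraries stood close together and all below the DMSO libraries. This was a log2 fold change of -0.37 ± 0.060 (adjusted p = 0.00259), and -0.22 with the trend removed (adjusted p = 0.0106), with a trend at its length of -0.15. It was called whichever library was left out, and in 19 of 20 other settings (adjusted p of up to 0.0531).

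Class V myosins carry vesicles, MYO5A among them melanosomes, MYO5B recycling endosomes and MYO5C secretory granules of epithelia. MYO5C (chr15:52192322-52295804, 6981 nucleotides) had 79.2, 82.4 and 78.6 CPM with DMSO and 59.6, 65.8 and 53.9 CPM with apigenin. The apigenin libraries all stood lower. On the log2 scale the change was -0.42 ± 0.075 (adjusted p = 0.00483), and -0.34 with the trend removed (adjusted p = 0.000569). It was called whichever library was left out. It overlaps CERNA1 and an uncharacterised gene.

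MYO5A (chr15:52307283-52529050, 12420 nucleotides) lies next to MYO5C, and 11478 bases separate the 3′ end of MYO5A from the 5′ end of MYO5C. It had 91.3, 91.7 and 102 CPM with DMSO and 64.9, 76.9 and 56.2 CPM with apigenin. The apigenin libraries were all lower, apigenin 3 by most. The log2 fold change was -0.53 ± 0.095 (adjusted p = 0.00536), and -0.36 with the trend removed (adjusted p = 0.000584), where the trend at its length was -0.17. Without apigenin 1 it was -0.51 and just missed the threshold (adjusted p = 0.0501).

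MYO5B (9583 nucleotides), on chromosome 18, was not called (-0.19 ± 0.075, adjusted p = 0.132, and -0.06 with the trend removed). Its share of the summed FPKM of the 3 class V genes was 25.1 ± 0.312% with DMSO and 28.8 ± 1.77% with apigenin. That of MYO5A was 30 ± 1.54 and 27.2 ± 1.53%, and that of MYO5C 44.9 ± 1.39 and 44 ± 0.811%. MYO5B overlaps SNHG22. Whether MYO5B differs from MYO5A in its change was not tested.

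**Figure D3:**
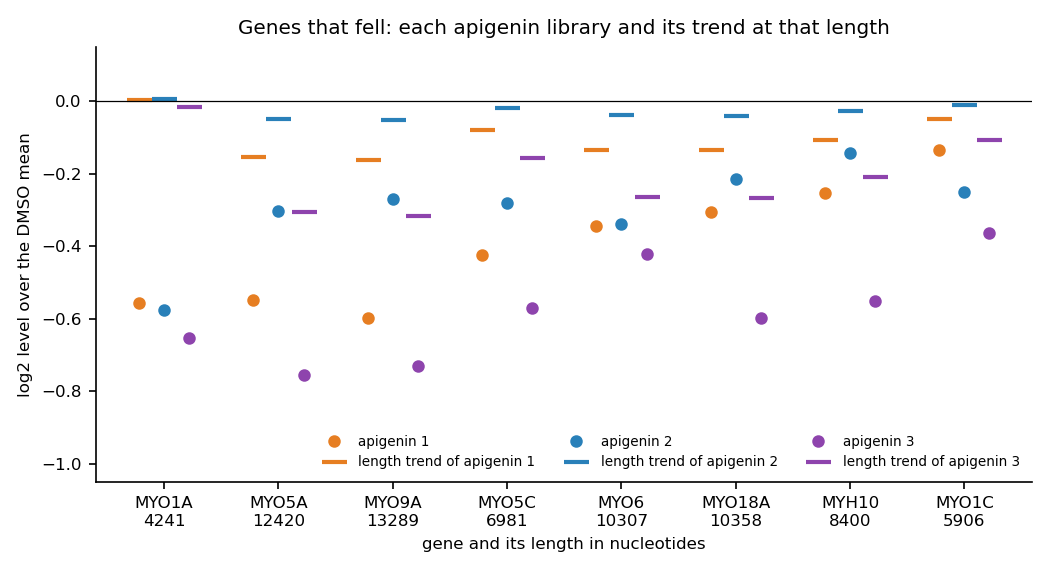
Log2 level of the 8 called genes in each apigenin library over the DMSO mean (points) and that library's trend at the gene's length (bars), with lengths in nucleotides under the names. All 24 points lie below their own bar, and the 8 genes are shown because they were called lower in these same libraries. For MYO5A, apigenin 1, 2 and 3 stand at -0.55, -0.30 and -0.76 against trends of -0.15, -0.05 and -0.30.

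MYO9A and MYO9B carry a domain that switches off small GTPases upstream of the light chain kinases. MYO9A (chr15:71822291-72118600, 13289 nucleotides) had 36.2, 38.3 and 37.1 CPM with DMSO and 24.6, 30.8 and 22.4 CPM with apigenin. Each apigenin library lay below the DMSO libraries. This was a log2 fold change of -0.52 ± 0.104 (adjusted p = 0.00939), and -0.35 with the trend removed (adjusted p = 0.00508). Without any 1 DMSO library or without apigenin 1 the adjusted p was above the threshold, at up to 0.0723, with values of -0.66 to -0.42. MYO9A overlaps SENP8.

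MYO9B (chr19:17075777-17213286, 7618 nucleotides) had 86.6, 91.8 and 89.5 CPM with DMSO and 81.3, 85.4 and 72.6 CPM with apigenin. All apigenin libraries were lower, but the gene was not called (-0.16 ± 0.070, adjusted p = 0.168, and -0.07 with the trend removed). Without apigenin 2 it was (-0.22, adjusted p = 0.0339).

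MYO18A, which binds the Golgi protein GOLPH3 and helps shape the Golgi, fell. MYO18A (chr17:29071122-29180398, 10358 nucleotides) had 80.4, 86.7 and 79.9 CPM with DMSO and 66.6, 71 and 54.3 CPM with apigenin. The apigenin libraries all stood lower, apigenin 3 by most. On the log2 scale the change was -0.36 ± 0.087 (adjusted p = 0.026), and -0.22 with the trend removed (adjusted p = 0.0213). The call was lost without any 1 DMSO library or apigenin 1 (values of -0.45 to -0.26, adjusted p of up to 0.134).

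Class I myosins are single-headed motors that tie membranes to actin. MYO1C (chr17:1464186-1492686, 5906 nucleotides), which serves membrane tension and the delivery of glucose transporter vesicles, had 260, 249 and 250 CPM with DMSO and 230, 213 and 197 CPM with apigenin. Each apigenin library lay below the DMSO libraries. The log2 fold change was -0.25 ± 0.063 (adjusted p = 0.0322), and -0.19 with the trend removed (adjusted p = 0.0133). Without any 1 DMSO library it was not called (values of -0.31 to -0.19, adjusted p of up to 0.173).

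MYO1A (chr12:57028517-57051198, 4241 nucleotides), a motor of intestinal brush border microvilli, had 5.22, 5.03 and 5.73 CPM with DMSO and 3.6, 3.55 and 3.36 CPM with apigenin. These were 188 to 198 reads with DMSO and 113 to 136 with apigenin, and the groups did not overlap. This was a log2 fold change of -0.60 ± 0.163 (adjusted p = 0.0412), and again -0.60 with the trend removed (adjusted p = 0.0299), the trend at its length being -0.0015. The call was lost without any 1 library but apigenin 2 (values of -0.64 to -0.55, adjusted p of up to 0.17).

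Of the class I genes not called, MYO1E (8644 nucleotides), a motor of clathrin-dependent endocytosis, stood at -0.23 ± 0.065 (adjusted p = 0.0528). MYO1D (7739 nucleotides) stood at -0.02 ± 0.169, and at 0.07 with the trend removed. MYO1E overlaps LDHAL6B, and MYO1D overlaps MYO1D-DT. MYO1E was called lower without apigenin 2 (adjusted p = 0.00779) or without apigenin 3 (adjusted p = 0.0392), and stood at -0.11 with the trend removed.

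MYO10, a motor of filopodial tips (chr5:16661907-16936288), had the longest inferred length of the set, 13970 nucleotides. It stood at 27.2, 24 and 25.6 CPM with DMSO and 30.9, 37.5 and 25.2 CPM with apigenin. Apigenin 1 and 2 stood above the DMSO libraries and apigenin 3 within them. The log2 fold change of 0.29 ± 0.119 was not called (adjusted p = 0.155). With the length trend removed it was 0.46 ± 0.085 and called (adjusted p = 0.00136), the trend at its length being -0.18. It was called in 7 of 20 other settings, among them without apigenin 3 (adjusted p = 0.00316).

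MYO7A (chr11:77128246-77215241, 8878 nucleotides), a motor of hair cell stereocilia, had 5.52, 6.61 and 5.1 CPM with DMSO and 4.16, 5.3 and 3.63 CPM with apigenin. Apigenin 2 lay within the DMSO range (-0.39 ± 0.182, adjusted p = 0.201, and -0.28 with the trend removed). MYO7B (7258 nucleotides), a motor of the brush border tips, had 31 reads or fewer in every library (-1.42 ± 0.711, adjusted p = 0.242, and -1.35 with the trend removed). MYO19 (4709 nucleotides), which binds mitochondria and overlaps ZNHIT3 and PIGW, stood at -0.08 ± 0.070, and at -0.07 with the trend removed. MYO15B (12367 nucleotides) stood at -0.21 ± 0.061 (adjusted p = 0.0526) and at -0.04 with the trend removed, and was called without apigenin 2 (adjusted p = 0.0295) or without apigenin 3 (adjusted p = 0.0219).

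**Figure D4:**
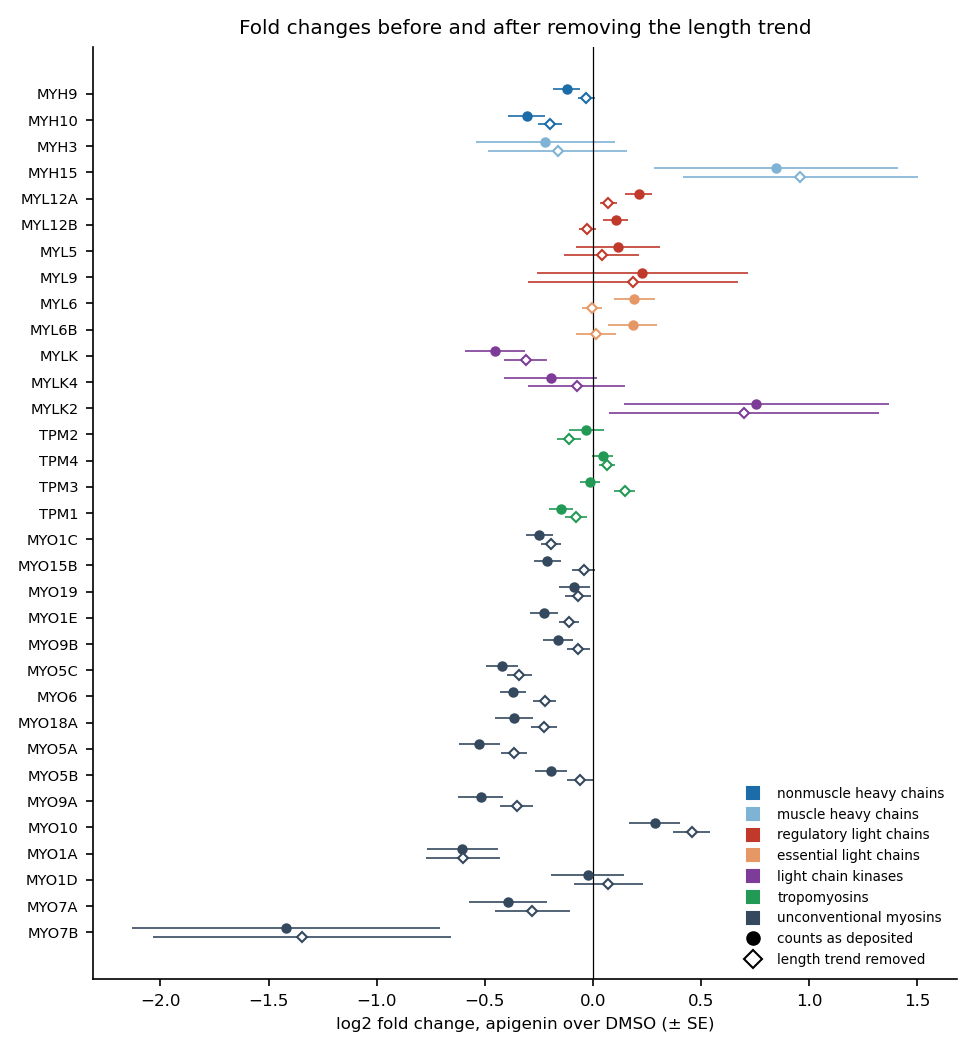
Log2 fold change (± SE) of 33 of the 34 tested genes with the counts as deposited (circles) and with the length trend removed (diamonds), coloured by role. The short light chain genes move to the left and most long myosin genes to the right. MYL6 goes from 0.19 to -0.0033, MYO5A from -0.53 to -0.36 and MYO10 from 0.29 to 0.46.

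The 11 genes that did not pass the filter had 1 to 51 reads over the 6 libraries together and at most 21 in 1 library. They were MYH4, MYH7B, MYH11, MYH14, MYL4, MYLK3, MYO1F, MYO1G, MYO3B, MYO15A and MYO16. None was at 0 in all libraries, and a count of 0 in a library allows up to 0.079 to 0.0885 CPM (3 counts, counting error only).

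Phosphorylation of the regulatory light chains is set by ROCK and related kinases against myosin phosphatase. Of 26 tested genes of that control 5 were lower, 1 was higher and 20 were not called, beside 4.22% lower and 2.76% higher over all tested genes. CDC42BPA, CIT, DAPK2 and ARHGEF12, 4 of the 5, were among 10 genes of the list in the longest 20% of tested genes, where 11.0% were lower. CDC42BPA, a kinase relative of ROCK that acts downstream of CDC42, fell from 126 ± 4.54 to 91.7 ± 12.9 CPM (11828 nucleotides, -0.46 ± 0.086, adjusted p = 0.00664, and -0.30 with the trend removed). CIT, citron kinase of the contractile ring, fell from 109 ± 0.604 to 81.2 ± 11 CPM (10605 nucleotides, -0.42 ± 0.083, adjusted p = 0.00852, and -0.28 with the trend removed). DAPK2, a death-associated kinase, fell from 25.5 ± 0.89 to 18.4 ± 2.02 CPM (14662 nucleotides, -0.47 ± 0.097, adjusted p = 0.0112, and -0.29 with the trend removed).

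ARHGEF12, an activator of RHOA, fell from 258 ± 3.81 to 196 ± 31.7 CPM (11240 nucleotides, -0.40 ± 0.088, adjusted p = 0.0176, and -0.25 with the trend removed). RHOB, a small GTPase gene of 2367 nucleotides, fell from 85.1 ± 3.41 to 69.7 ± 3.42 CPM (-0.29 ± 0.065, adjusted p = 0.0186, and -0.36 with the trend removed, adjusted p = 0.000281). PPP1R14B, an inhibitor of the phosphatase, rose from 97.5 ± 1.65 to 117 ± 12.2 CPM (989 nucleotides, 0.27 ± 0.073, adjusted p = 0.0413). Its value with the length trend removed was 0.11 and not called (adjusted p = 0.166), and 5 genes of the list were then lower, beside 5.38% of all tested genes. PPP1R12A, the targeting subunit of the phosphatase, stood at -0.08 ± 0.080 (5848 nucleotides, adjusted p = 0.588, and -0.03 with the trend removed). CIT, DAPK2, ARHGEF12, RHOB and PPP1R14B lost their calls without any 1 DMSO library or apigenin 1, and CDC42BPA without DMSO 3 (adjusted p of up to 0.0561, 0.0590 for CIT, 0.0746 for DAPK2, 0.0984 for ARHGEF12, 0.12 for RHOB and 0.174 for PPP1R14B).

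Of 26 tested genes for actin, its binding proteins and SRF with its coactivators, 1 was lower, 0 were higher and 25 were not called, beside 4.22% lower and 2.76% higher over all tested genes. VCL, vinculin of focal adhesions, fell from 227 ± 5.44 to 185 ± 26.5 CPM (6691 nucleotides, -0.30 ± 0.084, adjusted p = 0.0473). That call was lost without any 1 DMSO library or apigenin 1 (adjusted p of up to 0.184). ACTB stood at 3286 ± 52.3 and 3108 ± 79.9 CPM (1812 nucleotides, -0.08 ± 0.043, adjusted p = 0.271), and SRF at 41.2 ± 2.88 and 41.1 ± 1.86 CPM (4287 nucleotides, -0.01 ± 0.076, and -0.0030 with the trend removed). With the length trend removed 7 of the 26 were lower, beside 5.38% of all tested genes, among them ACTB (-0.18, adjusted p = 0.001) and VCL (-0.23).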

How the data were processed

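Members and lists were chosen with earlier results of these data known. Per the labels' protocols, total RNA was extracted with TRIzol and libraries were made with the VAHTS Universal V6 kit. The submitters' processing notes name fastp, HISAT2, HTSeq and GRCh38 (hg38), without versions, and none of the sources used here states whether counting used strand. The authors deposited whole-number read counts per gene and FPKM for each sample. The deposited FPKM equalled count over length and library total for 100% of genes (tolerance 0.0001), which gave the lengths.

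Groups (3 DMSO, 3 apigenin, by title) were compared with edgeR 4.0.16 (R 4.3.3) on counts, with TMM factors, the default low-count filter (15173 genes), and Benjamini-Hochberg adjustment over those genes at 0.05. SE is the log2 fold change over the root of F. The length trend was removed with lowess offsets (span 0.3) on log2 length per library. Other settings were DESeq2 1.42.0, other scaling, other filters, a replicate block, limma 3.58.1 on log2(FPKM + 1) and log2(FPKM + 0.1), and each library left out. Fold changes on that scale understate low genes. Steps were tested on simulated data. Replicates differed beyond counting noise (chi-square over degrees of freedom 4.4 to 29.6). P-values measure the spread between these samples, which may be technical, as separate cultures are not stated. The values of 1 of the 34 tested genes are not reported here. The other tested genes of the set are named; library values are given for called genes and for a core listed by role (nonmuscle heavy chains, MYL6, MYL9, MYL12A, MYL12B, MYLK, tropomyosins, and the highest gene of classes I, V, VI, VII, IX and X).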

Additional observations from a re-analysis of the deposited data

How the results depend on the processing

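The 8 calls were kept with RLE or upper-quartile factors, DESeq2, no filter, a filter of 1 CPM in 3 libraries and the length trend removed. With 3 libraries a group, several calls were lost when 1 library was left out. Lower calls over all genes also went from 641 to 157, 179, 181 and 184 without DMSO 1, 2, 3 and apigenin 1. Over the 20 other settings, 535 of 646 values of single genes kept direction and side of the threshold, 44 lost the call, 35 gained it and 32 changed sign. All 32 were in genes not called in the edgeR test above. TPM3 was among them, and it was called higher in 2 of these settings. Where not stated, the cause was not tested.

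Among the 34 tested genes, those called higher numbered 1 with DESeq2, 3 with no filter, 1 with the length trend removed and 0 to 2 with a library left out. Those called lower numbered 3 with limma on log2(FPKM + 1) or log2(FPKM + 0.1) (MYO5A, MYO5C and MYO6), 0 with limma on log2(FPKM + 1) and no filter, and 3 to 13 with a library left out. Over all genes, 658 were higher with DESeq2, 865 with no filter, 702 with the length trend removed, 78 with limma and no filter and 103 to 1344 with a library left out. Lower were 1096 with no filter, 303, 289 and 60 with limma on log2(FPKM + 1), on log2(FPKM + 0.1) and with no filter, and 157 to 1546 with a library left out. The highest counts were without apigenin 2, the apigenin library with the flattest slope on length (-0.02). Without it and with the length trend removed, 980 genes were higher and 986 lower, 2 and 9 of them among the 34. MYH9, MYL6, MYL12A, MYO1E, MYO9B and MYO15B were then not called.

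For the control of the light chains, 2 genes were higher with DESeq2 and with no filter, 0 with the length trend removed, 0 with limma in all 3 forms and 0 to 2 with a library left out. Lower were 3, 3 and 0 with limma on log2(FPKM + 1), on log2(FPKM + 0.1) and with no filter, and 0 to 12 with a library left out. For the actin and SRF partners, 3 genes were lower with DESeq2 and with no filter, 7 with the length trend removed, 0 with limma in all 3 forms and 0 to 7 with a library left out, and 0 to 2 were higher with a library left out.

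With the replicate number as a block, 1 of the 34 genes was higher (MYL12A) and 8 were lower (MYO1A lost, MYLK gained). Libraries of the same number did not deviate together (correlations of -0.02, -0.02 and -0.05). Such correlations cannot exclude a shared batch, and the labels do not state whether the numbers pair the samples. With the block and the length trend removed, 2 of the 34 genes were higher and 9 lower, 828 genes were higher in all, 6 actin and SRF partners were lower and 0 control genes were higher.

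With the length trend removed, without and with the replicate block, the sign changed for MYL12B (-0.0246 and -0.0248), MYL6 (-0.0033 and -0.0040), MYO1D (0.0715 and 0.0810) and TPM3 (0.148 and 0.144, the latter called, adjusted p = 0.0198). With a library left out, with or without that trend, the ranges crossed 0 for MYH9 (-0.18 to 0.0054), MYL12B (-0.0522 to 0.13), MYL5 (-0.0780 to 0.33), MYL6 (-0.0565 to 0.29), MYL6B (-0.0061 to 0.29), MYL9 (-0.26 to 0.60), MYLK4 (-0.32 to 0.0578), MYO15B (-0.26 to 0.0230), MYO1D (-0.17 to 0.13), TPM2 (-0.19 to 0.0518) and TPM3 (-0.0194 to 0.21). MYH3, MYH15, MYL9, MYLK2 and MYO7B rest on few reads, and depth limits what they can show.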
